A study of Mus musculus with 15 samples.

Results

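Skin taken beside actinic keratosis lesions was compared with skin titled as not exposed to ultraviolet (UV) light, both from placebo-treated mice. The comparison used 6 of the 15 libraries of the series. The 3 perilesional and 3 non-UV-exposed libraries were chosen by their sample titles, so no measured value entered the choice. Mice were female SKH1, an outbred hairless albino strain that is widely used for ultraviolet carcinogenesis. Their age is given as 6 to 8 weeks, which is shorter than the 10 weeks of irradiation and so cannot be the age at collection. One protocol is given for all libraries: 500 J/m2 ultraviolet B on 5 days per week over 10 weeks, and for controls 0.25 g of placebo cream on 5 days per week. Titles alone set the unexposed group apart from that protocol, and the headers of the deposited tables call the same group "back". Body site may therefore differ along with exposure, and the effects of site and exposure cannot be told apart. Titles number the controls 1 to 3 at each site, without saying whether one number stands for one mouse. P-values here therefore reflect only spread between libraries, be it biological or technical. The deposited SEs behind them also draw on the non-lesional libraries.

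No deposited table holds the comparison. It was formed by adding, gene by gene, the log2 fold change of non-lesional irradiated skin over non-UV skin and that of perilesional skin over non-lesional skin, so that the non-lesional group cancels. The standard error (SE) was taken as the larger of the 2 deposited SEs, because the exact one needs a variance that the tables do not give. A gene was called at a Benjamini-Hochberg adjusted p under 0.05 in a two-sided Wald test with a normal tail, and "rose" and "fell" are used for called genes. The tables hold fold changes without values per library, so neither expression levels nor sequencing depth can be shown, and each value is a difference between groups. All 4 tables were made from 1 tissue label, skin, and the keratinocyte markers Krt5, Krt14, Krt1 and Krt10 all had enough reads to be tested. Lor was also tested, while Flg was not analysed here.

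Skin that lies near an ultraviolet-induced lesion has had the same irradiation as the lesion, and such a field is known to carry cellular damage before a growth is visible. Ultraviolet light acts on keratinocytes through DNA damage and oxidative stress, and it prompts thickening, release of cytokines and entry of immune cells. Injured epidermis switches on the keratins Krt6, Krt16 and Krt17 with antimicrobial and crosslinking proteins, whereas resting epidermis makes these mainly in the follicle.

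Of 14122 genes tested, 1234 were called in perilesional over non-UV skin, which is 8.74%. Of these 537 rose (3.8%) and 697 fell (4.94%). The genes that rose included 397 with a log2 fold change of at least 1, and 299 of those that fell had changed by as much. The median over all genes tested was 0.02. The count depends on the SE: with the largest SE that the deposited values allow, the root of the summed squares, 97 genes were called, 71 of them higher and 26 lower. That bound would be reached only if the non-lesional libraries did not vary at all. Beside these stand 235 of 14124 genes called in the authors' deposited table of non-lesional over non-UV skin (1.66%). In their deposited table of lesional over non-UV skin the count was 2785 of 15201 (18.3%). All of these comparisons share the non-UV libraries. The 1234 calls rest on a derived test with a substitute SE and the authors' counts on DESeq2, so they are not like for like. Tested directly, perilesional over non-lesional skin gave 17 of 15201 genes in the authors' deposited table (0.112%).

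**Figure D1:**
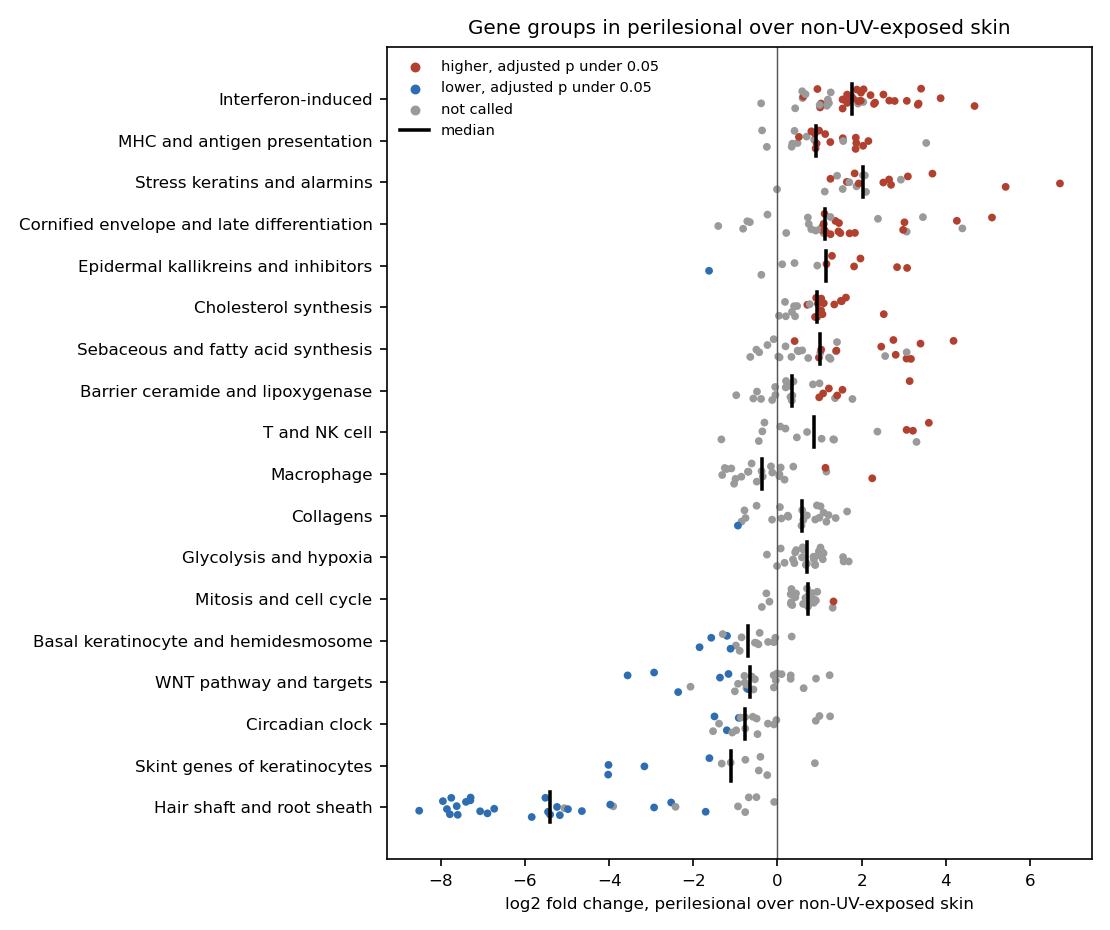
Log2 fold change in perilesional over non-UV-exposed skin (horizontal axis) for every tested member of the gene groups named on the vertical axis, with 1 point per gene, colour for called genes and a black bar at each group's median. Interferon-induced genes lie mostly to the right with a median of 1.78, and hair shaft and root sheath genes lie to the left with a median of -5.40.

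Genes induced by interferon formed one of the largest groups of calls. Interferons are cytokines that cells make when they sense viral or damaged nucleic acid, and they raise antiviral and antigen-presenting proteins in the cells they reach. Of the 40 listed genes, all tested, 28 rose and 0 fell, beside 3.8% of all genes that rose, and the median log2 fold change was 1.78. Cxcl9, a chemokine that draws activated T cells, rose by 3.88 ± 0.46 (SE; adjusted p = 7.5e-14), or 14.7-fold. The antiviral oligoadenylate synthetase family members Oasl2 and Oas1g rose by 2.79 ± 0.44 and 2.52 ± 0.47. Their adjusted p-values were 1.4e-07 and 1.6e-05. Among the members that were not called, Isg15 had 1.92 and Rsad2 had 2.04, with adjusted p of 0.057 and 0.13. With the largest SE 6 of the 40 genes were called.

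These 3 genes were also above unexposed skin at the other irradiated sites. For non-lesional over non-UV skin the authors' deposited table gave Cxcl9 3.21, Oasl2 2.25 and Oas1g 2.16. In their deposited table of lesional over non-UV skin the values were 3.72, 2.46 and 2.06. The list medians were 1.36 for non-lesional and 1.73 for lesional skin. No member was called in perilesional over non-lesional skin, where 0.112% of all genes were called, nor in lesional over perilesional skin, where 0.533% were. All 3 medians share the non-UV libraries.

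Promoter sequences of this group are shown because 28 of its genes moved in one direction. They are taken from RefSeq on build GRCm38.p6, cover the 250 bases before the transcription start and are written on the gene's strand from 5′ to 3′. Capitals mark the core of the interferon-stimulated response element, searched on both strands as GAAA, any 2 bases, and GAAA again, which reads as TTTC, any 2 bases and TTTC on the opposite strand. Cxcl9 was the member of smallest adjusted p with a promoter entry. Oas1g, Gbp7 and Cxcl10 were added after their windows had been seen. Gbp7, an interferon-induced GTPase, rose by 1.92 ± 0.36 (adjusted p = 2.6e-05), and Cxcl10, a chemokine for the same receptor as Cxcl9, rose by 4.69 ± 0.92 (adjusted p = 6e-05).
Cxcl9 (chr5:92328080-92328329, minus strand): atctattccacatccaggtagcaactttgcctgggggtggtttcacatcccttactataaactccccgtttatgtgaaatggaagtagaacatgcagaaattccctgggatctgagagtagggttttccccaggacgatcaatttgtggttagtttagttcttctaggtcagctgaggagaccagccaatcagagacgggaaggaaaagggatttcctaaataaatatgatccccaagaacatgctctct
Oas1g (chr5:120887614-120887863, minus strand): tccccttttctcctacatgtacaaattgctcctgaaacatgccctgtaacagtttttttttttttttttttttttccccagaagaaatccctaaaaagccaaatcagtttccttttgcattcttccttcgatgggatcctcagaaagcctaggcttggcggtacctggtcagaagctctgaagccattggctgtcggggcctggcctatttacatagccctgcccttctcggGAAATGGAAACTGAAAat
Gbp7 (chr3:142530086-142530335, plus strand): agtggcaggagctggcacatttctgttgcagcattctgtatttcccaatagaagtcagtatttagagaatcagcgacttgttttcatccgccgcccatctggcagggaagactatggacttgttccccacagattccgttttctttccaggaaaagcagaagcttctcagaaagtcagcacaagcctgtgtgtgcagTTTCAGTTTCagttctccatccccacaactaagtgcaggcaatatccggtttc
Cxcl10 (chr5:92348890-92349139, minus strand): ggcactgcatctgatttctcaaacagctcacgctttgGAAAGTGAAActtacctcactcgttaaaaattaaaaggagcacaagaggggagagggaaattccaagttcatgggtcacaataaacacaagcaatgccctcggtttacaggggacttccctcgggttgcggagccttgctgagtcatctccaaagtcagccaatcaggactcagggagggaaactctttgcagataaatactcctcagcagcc
Counting back from the start, 2 overlapping matches begin at -18 and -12 in Oas1g, 1 at -53 on the opposite strand in Gbp7 and 1 at -213 in Cxcl10. The Cxcl9 window, like that of Oasl2, holds no match. Across both strands the motif was in 978 of 32851 RefSeq promoters (2.98%). With 1 promoter per tested gene, as in the list counts, the motif was in 266 of 10502 (2.53%). It was in 15 of the 27 interferon-list promoters that had an entry, and in 12 of the 18 that belonged to called genes. A match describes the letters of the window and does not show binding.

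Genes of antigen presentation were also higher. Major histocompatibility complex (MHC) proteins carry peptides to the cell surface for T cells to inspect, class I on nearly all cells and class II on professional antigen-presenting cells. Of 24 listed genes 14 rose and 0 fell, beside 3.8% and 4.94% of all genes, with a median of 0.92. Tapbp, which loads peptide onto class I molecules, rose by 0.93 ± 0.16 (adjusted p = 2.7e-06). H2-T22, a non-classical class I gene that belongs to a family of close copies, rose by 1.26 ± 0.23 (adjusted p = 1.8e-05). Ciita, the master regulator of class II genes, rose by 2.16 ± 0.45 (adjusted p = 0.00019), and the class II chain H2-Eb1 rose by 1.86 ± 0.41 (adjusted p = 0.00048). At the largest possible SE 2 of the 24 passed. The median was 0.64 for non-lesional and 0.55 for lesional skin over the same non-UV libraries.

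Some marker genes of T cells and dendritic cells were higher. Among 16 tested T and natural killer cell genes, 3 rose and 0 fell, beside 3.8% of all genes that rose, with a median of 0.88. Values were positive for 12 of the 16 and negative for 4, the lowest being -1.33. Icos, a costimulatory receptor of activated T cells, rose by 3.22 ± 0.57 (adjusted p = 6.2e-06). Cd8a, a coreceptor of cytotoxic T cells, rose by 3.07 ± 0.69 (adjusted p = 0.00075), and Foxp3, the transcription factor of regulatory T cells, rose by 3.60 ± 1.00 (adjusted p = 0.0083). With the largest SE 1 of the 16 was called, and when an adjusted p was required in all 4 tables, 3 of them could be tested and 1 was called. In bulk tissue, more cells of a type and more RNA per cell cannot be told apart. Of 14 tested Langerhans and dendritic cell genes, 3 rose, and none was called with the largest SE: Epcam at 0.94 ± 0.23, the costimulatory ligand Cd86 at 1.82 ± 0.50 and the actin bundler Fscn1 at 1.34 ± 0.40. Their adjusted p-values were 0.0018, 0.0075 and 0.017. Cd207, the langerin that defines Langerhans cells, had 1.38 ± 0.60 and was not called (adjusted p = 0.13).

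Macrophage markers did not share one direction. Among 23 tested genes 2 rose, beside 3.8% of all genes, and the median was -0.38. One of these was Arg1, an arginine-degrading enzyme, which rose by 2.25 ± 0.73 (adjusted p = 0.03). Csf1r and Cd68 had 1.16 ± 0.53 and -1.0 ± 0.57, with adjusted p of 0.15 and 0.29. Of 6 tested neutrophil genes 5 had positive values and the median was 1.43, but none of the 5 was called. The one call was Il1r2, a decoy receptor for interleukin-1, which fell by 1.79 ± 0.42 (adjusted p = 0.0011). None of 7 mast cell and eosinophil genes was called, nor was Igj, the single B and plasma cell gene tested. Of 21 chemokines and cytokines outside the interferon list, Ccl8 rose by 2.60 ± 0.88 and Ccl22 by 1.49 ± 0.52, with adjusted p of 0.039 and 0.047. No macrophage, neutrophil or chemokine gene was called with the largest SE.

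Keratins and defence genes of injured epidermis rose. Of 21 tested stress keratins and alarmins 11 rose and 0 fell, beside 3.8% of all genes that rose, and the median was 2.03. Krt16 rose by 3.68 ± 0.45 (adjusted p = 1.1e-12), or 12.9-fold. Its type II partners Krt6a and Krt6b rose by 3.10 ± 0.51 and 5.42 ± 0.78, with adjusted p of 5.4e-07 and 6.1e-09, and Krt17 rose by 1.65 ± 0.28 (adjusted p = 1.1e-06). Stfa3, a stefin that inhibits cysteine proteases, rose by 1.93 ± 0.26 (adjusted p = 1.3e-10). Sprr1a and Sprr1b, small proline-rich crosslinking proteins, rose by 2.52 ± 0.60 and 2.70 ± 0.59, with adjusted p of 0.0014 and 0.00039. Il1f8 and Il1f9, epidermal cytokines of the interleukin-1 family, rose by 1.83 ± 0.44 and 1.26 ± 0.33, with adjusted p of 0.0015 and 0.005. S100a8, a calcium-binding alarmin, had 1.88 ± 1.39 and was not called (adjusted p = 0.45). Under the largest SE 6 of the 21 passed.

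Krt16 and its partners had values of like size in irradiated skin without a lesion nearby. For non-lesional over non-UV skin the authors' deposited table gave Krt16 3.70, Krt6b had 5.10 and Krt6a 2.69. Their deposited table of lesional over non-UV skin gave 4.15, 6.60 and 4.50. The list median was 1.46 in non-lesional and 3.69 in lesional skin, and no member was called in lesional over perilesional skin.

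Promoters of Sprr1b and Sprr1a are shown with TGANTCA in capitals, the core bound by AP-1 factors, which takes the same form on both strands. They were chosen after their windows had been seen.
Sprr1b (chr3:92438780-92439029, minus strand): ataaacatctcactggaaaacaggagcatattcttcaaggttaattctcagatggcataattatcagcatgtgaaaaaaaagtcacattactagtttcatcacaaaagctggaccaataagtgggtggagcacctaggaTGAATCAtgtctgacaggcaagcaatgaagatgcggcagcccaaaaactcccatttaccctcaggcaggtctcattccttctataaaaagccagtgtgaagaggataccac
Sprr1a (chr3:92485882-92486131, minus strand): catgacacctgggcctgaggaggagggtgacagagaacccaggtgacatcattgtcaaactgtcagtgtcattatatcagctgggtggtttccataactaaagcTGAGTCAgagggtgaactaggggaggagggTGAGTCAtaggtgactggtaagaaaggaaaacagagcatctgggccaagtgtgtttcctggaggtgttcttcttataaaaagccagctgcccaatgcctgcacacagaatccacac
A match begins at -111 in Sprr1b, and 2 begin at -146 and -116 in Sprr1a. The Stfa3 window holds none. The motif was in 2217 of 32851 promoters (6.75%) and, with 1 promoter per tested gene, in 508 of 10502 (4.84%). It was in 6 of the 15 stress-list promoters with an entry and in 3 of the 7 of called genes.

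No gene for an AP-1 factor was called higher. Of 22 tested AP-1 and immediate early genes 0 rose and 2 fell, beside 4.94% of all genes that fell, with a median of -0.14. Neither of the 2 was called with the largest SE. The factor Fosb fell by 3.59 ± 0.91 (adjusted p = 0.0032) and Atf3 fell by 2.33 ± 0.61 (adjusted p = 0.0048). For non-lesional over non-UV skin the authors' deposited table gave -3.98 and -3.21. Fosl1, the AP-1 member FRA-1, had -1.92 ± 0.77 and was not called (adjusted p = 0.099), and it was higher in lesional than in perilesional skin by 3.48 ± 0.75 (adjusted p = 0.0035).

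The late programme of the epidermis was raised as well. Cornified envelope proteins are crosslinked beneath the membrane of the dying keratinocyte to form the outer barrier. Of 35 tested genes 17 rose and 0 fell, beside 3.8% of all genes that rose, with a median of 1.12. Rptn, an envelope precursor of the S100 fused family, rose by 4.27 ± 0.44 (adjusted p = 3.4e-18), or 19.2-fold. Cdsn, the adhesive protein of corneodesmosomes, rose by 1.46 ± 0.30 (adjusted p = 0.00019). Of 14 tested late cornified envelope genes of the Lce1 cluster, 11 rose, led by Lce1h at 1.84 ± 0.34 (adjusted p = 1.3e-05) and Lce1g at 1.71 ± 0.33 (adjusted p = 3e-05). Lce1 genes are near-identical neighbours, and how reads were divided between them is not given in the sources used here. Lor and Ivl, major and early envelope proteins, had -0.66 ± 0.49 and 0.21 ± 0.55 and were not called, with adjusted p of 0.46 and 0.87. The largest SE left 3 of the 35 called.

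The Lce1 genes separated perilesional from lesional skin. In lesional over perilesional skin 13 cornified envelope genes were lower, beside 0.224% of all genes, and 1 was higher (0.309% of all genes). Lce1h was lower by a log2 value of -1.89 ± 0.33 (adjusted p = 0.00018) and Lce1g by -1.57 ± 0.32 (adjusted p = 0.0018), and 11 of the 13 belong to the Lce1 cluster. The higher gene was Tgm3, a transglutaminase, at 2.03 (adjusted p = 0.032). The authors' deposited table of lesional over non-UV skin gave -0.04 for Lce1h and 0.15 for Lce1g. Their deposited table of non-lesional over non-UV skin gave 1.55 and 1.49. Both irradiated sites without a lesion were thus above unexposed skin for these genes while lesional values were near 0.

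**Figure D2:**
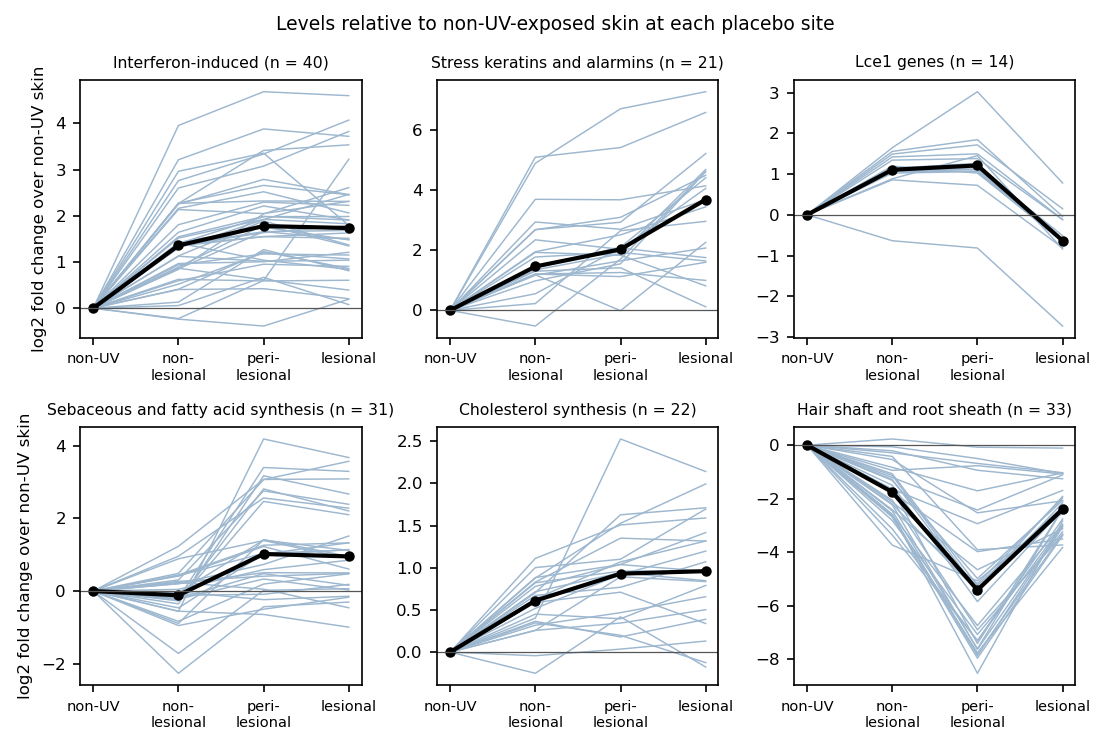
Log2 fold change over non-UV-exposed skin (vertical axis) at the placebo sites on the horizontal axis for 6 gene groups. Thin lines are genes and the black line is the median, and non-UV skin is 0 by definition. The interferon-induced median is above 0 at all 3 irradiated sites. Among the Lce1 genes, Lce1h has 1.55 in non-lesional, 1.84 in perilesional and -0.04 in lesional skin. Sebaceous medians go from -0.12 in non-lesional to 1.02 in perilesional skin.

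Proteases that shed the outer layer were higher. Of 11 tested kallikreins and their inhibitors 6 rose and 1 fell, beside 3.8% and 4.94% of all genes. Klk6 rose by 2.84 ± 0.38 (adjusted p = 1.6e-10), Klk9 by 1.82 ± 0.39 (adjusted p = 0.00026), Klk13 by 3.08 ± 0.68 (adjusted p = 0.00057) and Klk10 by 1.97 ± 0.47 (adjusted p = 0.0013). Serpinb7, an epidermal serpin, fell by 1.63 ± 0.42 (adjusted p = 0.0037). Klk6 was the 1 gene of the list called with the largest SE.

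Keratins and adhesion genes of the living layers gave a mixed picture. Of 20 tested suprabasal keratins and desmosomal genes 4 rose and 2 fell, beside 3.8% and 4.94% of all genes, and 1 of each was called with the largest SE. Krt77, a suprabasal keratin of the epidermis, fell by 5.97 ± 1.10 (adjusted p = 1.4e-05), and Krt2, a keratin of the upper layers, fell by 3.49 ± 0.89 (adjusted p = 0.0034). The desmosomal cadherins Dsc1 and Dsg1b rose by 1.49 ± 0.28 and 1.14 ± 0.29, with adjusted p of 1.8e-05 and 0.0035. Krt1 and Krt10, the main keratins of differentiating cells, had 0.60 ± 0.38 and 0.26 ± 0.57, with adjusted p of 0.35 and 0.84. The authors' deposited table of non-lesional over non-UV skin gave -3.07 for Krt77, and their deposited table of lesional over non-UV skin gave -7.49.

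Genes of the basal layer leaned lower. Of 16 tested basal keratinocyte and hemidesmosome genes 0 rose and 4 fell, beside 4.94% of all genes, and the median was -0.69. Dst, the plakin that ties keratins to hemidesmosomes, fell by 1.57 ± 0.33 (adjusted p = 0.00023). Krt15, a keratin of resting basal and bulge cells, fell by 1.85 ± 0.46 (adjusted p = 0.0026). Lama3, a laminin chain, fell by 1.20 ± 0.38 and the transmembrane collagen Col17a1 fell by 1.11 ± 0.38, with adjusted p of 0.025 and 0.041. Krt5 and Krt14, the basal keratin pair, had -0.45 ± 0.36 and 0.34 ± 0.35, with adjusted p of 0.49 and 0.61. None of the 4 was called with the largest SE.

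Skint genes, which encode butyrophilin-like proteins of keratinocytes known for the selection of epidermal gamma-delta T cells, were lower in part. Of 11 tested members 4 fell and 0 rose, beside 4.94% of all genes that fell, and 3 were called with the largest SE. Skint7 fell by 4.02 ± 0.61 (adjusted p = 3.5e-08), Skint6 fell by 3.16 ± 0.60 (adjusted p = 2.6e-05), Skint5 fell by 4.02 ± 0.77 (adjusted p = 3.9e-05) and Skint9 fell by 1.62 ± 0.51 (adjusted p = 0.026). The authors' deposited table of non-lesional over non-UV skin gave -1.88 for Skint7, -1.65 for Skint6 and -2.33 for Skint5. Their deposited table of lesional over non-UV skin gave -4.95, -3.96 and -4.46. Perilesional values of these 3 genes thus lay between the other irradiated sites. However, no Skint gene was called in perilesional over non-lesional skin, where 0.112% of all genes were. None was called in lesional over perilesional skin either, where 0.533% were. The family holds similar copies, so some reads may be shared.

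Genes of lipid synthesis rose along 2 routes. Cholesterol is made from acetyl-CoA through mevalonate, and the barrier needs it with ceramides and free fatty acids. Of 22 tested cholesterol synthesis genes 14 rose and 0 fell, beside 3.8% of all genes that rose, and all 22 had positive values, with a median of 0.93. Idi1, which isomerises the first isoprenoid unit, rose by 1.53 ± 0.30 (adjusted p = 5.4e-05), and Msmo1, a sterol methyl oxidase, rose by 1.63 ± 0.26 (adjusted p = 2.7e-07). The largest SE left 4 of the 22 called. The median was 0.61 in non-lesional and 0.96 in lesional skin.

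The second route, synthesis of the fatty acids and waxes of sebum, gave 11 genes that rose and 0 that fell among 31 tested, beside 3.8% of all genes that rose, with a median of 1.02. Elovl6 and Elovl3, which lengthen fatty acids, rose by 2.81 ± 0.61 and 3.17 ± 0.86, with adjusted p of 0.00036 and 0.0062. Fa2h, the fatty acid 2-hydroxylase, rose by 4.19 ± 1.08 (adjusted p = 0.0036), Far2, a fatty acyl reductase for wax synthesis, rose by 3.40 ± 0.93 (adjusted p = 0.0067), and Scd1, the sebaceous desaturase, by 2.47 ± 0.72 (adjusted p = 0.013). The citrate carrier Slc25a1 rose by 1.40 ± 0.36 (adjusted p = 0.0031). Fasn, Acaca and Plin2 had 0.59, -0.24 and 0.02 and were not called. The motif TCACNCCAC, bound by sterol regulatory element binding proteins, was in 0 of 23 promoters of this list that had an entry. It was in 346 of 32851 overall (1.05%) and, with 1 promoter per tested gene, in 107 of 10502 (1.02%). None of the 31 was called with the largest SE.

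In irradiated non-lesional skin the 6 called genes just named had values below 0. The authors' deposited table of non-lesional over non-UV skin gave -0.25 ± 0.61 for Elovl6, -0.56 ± 1.08 for Fa2h, -0.35 ± 0.86 for Elovl3 and -0.05 ± 0.36 for Slc25a1. Each of these 4 values was smaller than its SE, and none was called there, so they do not show a fall. The difference itself is in the authors' deposited table of perilesional over non-lesional skin, where these 4 genes were called higher, beside 0.0921% of all genes. Elovl6 had 3.06 ± 0.60 (adjusted p = 0.0061), Fa2h 4.75 ± 1.06 (adjusted p = 0.018), Elovl3 3.52 ± 0.83 (adjusted p = 0.03) and Slc25a1 1.45 ± 0.34 (adjusted p = 0.03). The authors' deposited table of lesional over non-UV skin gave 2.20 for Elovl6 and 3.67 for Fa2h. No member of either list was called in lesional over perilesional skin.

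**Figure D3:**
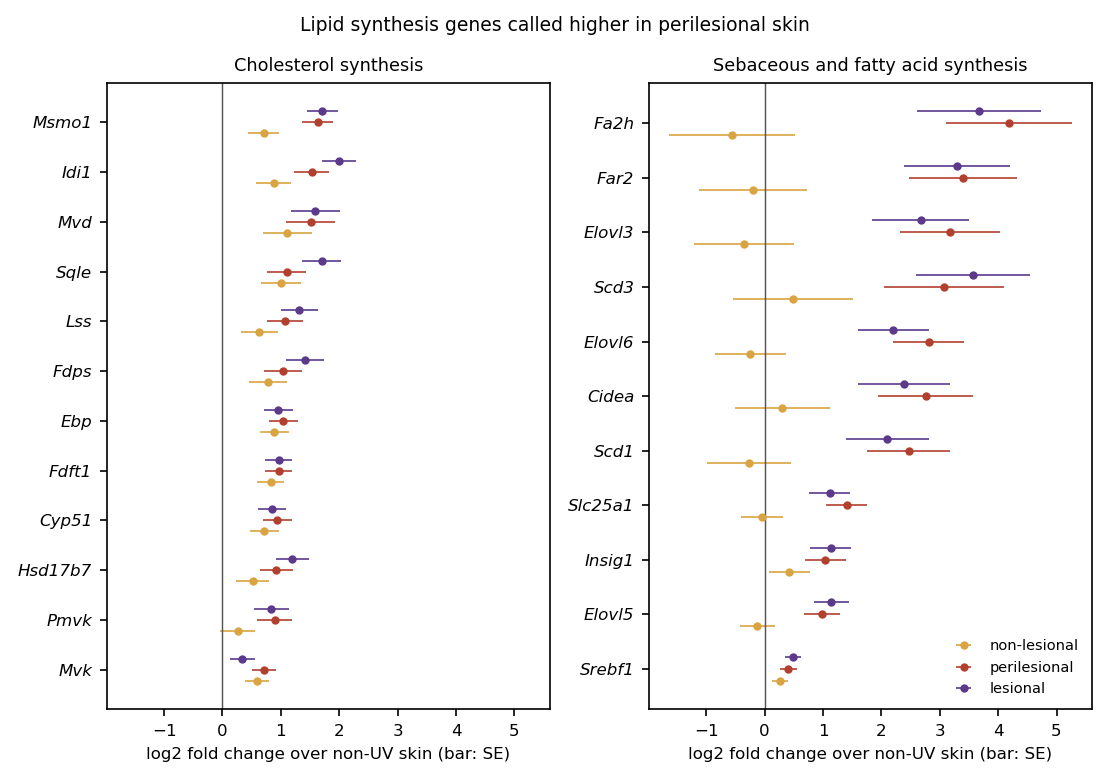
Log2 fold change over non-UV-exposed skin with its SE (horizontal axis) for 12 of the 14 cholesterol genes (first panel) and the 11 sebaceous and fatty acid genes (second panel) that were called higher in perilesional skin, with 1 marker for each irradiated placebo site. Elovl6 and Fa2h lie at -0.25 and -0.56 in non-lesional skin and at 2.81 and 4.19 in perilesional skin, whereas Msmo1 and Idi1 are above 0 at all 3 sites.

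Ceramide and lipoxygenase genes of the barrier followed with 6 that rose and 0 that fell among 25 tested, beside 3.8% of all genes that rose. Of the 25, 1 was called with the largest SE. Degs1, which makes ceramide from dihydroceramide, rose by 1.09 ± 0.21 (adjusted p = 5.3e-05), and Elovl4, needed for the ultra-long acyl chains, rose by 1.55 ± 0.33 (adjusted p = 0.0003). Cers4, a ceramide synthase expressed in sebaceous glands, rose by 3.14 ± 0.68 (adjusted p = 0.00034). Cers4 was called as well in perilesional over non-lesional skin, and the authors' deposited table gave 2.80 ± 0.66 (adjusted p = 0.03).

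Hair genes gave the largest group of falls. SKH1 mice lose their coat after the first cycle but keep follicle remnants, and hair keratins and keratin-associated proteins mark the growing shaft. Of 33 tested hair shaft and root sheath genes 25 fell and 0 rose, beside 4.94% of all genes that fell, and all 33 had negative values, with a median of -5.40. Tchh, trichohyalin of the inner root sheath, fell by 4.98 ± 0.88 (adjusted p = 4.7e-06). Dsg4, the desmoglein of the hair cortex, fell by 6.89 ± 1.29 (adjusted p = 2.3e-05). The hair keratins Krt82 fell by 7.95 ± 1.57 (adjusted p = 7.4e-05) and Krt86 fell by 7.60 ± 1.66 (adjusted p = 0.00045). The follicle regulators Foxn1 and Hoxc13 had -0.08 and -0.77 and were not called. With the largest SE 3 of the 33 were called.

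The authors' deposited table of non-lesional over non-UV skin gave -1.32 for Tchh, -2.06 for Dsg4 and -2.67 for Krt82. The DESeq2 adjusted p-values were 0.71, 0.22 and 0.25, and 0 of the 33 genes were called there, beside 1.66% of all genes. The authors' deposited table of lesional over non-UV skin gave -2.06, -3.35 and -3.37. In it 9 of the 33 were called, all lower, beside 18.3% of all genes called in either direction. The list medians were -1.75 and -2.39, so perilesional skin had the lowest median of the irradiated sites. Tested directly, only Tchh was called in the authors' deposited table of perilesional over non-lesional skin, with -3.66 ± 0.88 (adjusted p = 0.032), and 0.0197% of all genes were lower there. None of the 33 was called in lesional over perilesional skin, in which Tchh had 2.92 (adjusted p = 0.094). Many SEs in this list were above 1.

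WNT signalling, which drives hair growth, was lower in part. Of 26 tested WNT pathway and target genes 6 fell and 0 rose, beside 4.94% of all genes that fell, with a median of -0.66. Wnt10b, a ligand of the growing follicle, fell by 2.36 ± 0.58 (adjusted p = 0.0021) and Wnt5a, a non-canonical ligand, fell by 1.16 ± 0.32 (adjusted p = 0.0078). Lef1, the transcription factor partner of beta-catenin, fell by 2.93 ± 0.75 (adjusted p = 0.0032) and the target and inhibitor Axin2 fell by 1.37 ± 0.35 (adjusted p = 0.0038). Lef1 is also in the hair list. None of the 6 passed with the largest SE.

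The extremes of the comparison came mostly from these groups. Among the 12 largest rises, Chil4, a secreted chitinase-like protein made in allergic inflammation, rose by 10.06 ± 1.50 (adjusted p = 2.5e-08). For Chil4 the authors' deposited table of non-lesional over non-UV skin gave 8.59. Stfa2 rose by 6.72 ± 1.30 and Gpr128, an adhesion receptor, by 6.36 ± 1.68, with adjusted p of 4.2e-05 and 0.0051. Sprr2a1 and Sprr2a2 both had 5.52 ± 0.83, and their values are identical in every table, so they count as 1 measurement. Spink7, a protease inhibitor, rose by 5.42 ± 1.32 (adjusted p = 0.0019), and Lce3f, Igfl3 and St6galnac3 rose by 5.10, 5.0 and 5.0 with adjusted p of 0.032, 0.05 and 0.036.

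Serpina3j, a serpin from a cluster of close copies, and Cntn2, a neural adhesion molecule, rose by 5.90 ± 1.30 (adjusted p = 0.00053) and 5.14 ± 1.34 (adjusted p = 0.0041). In perilesional over non-lesional skin both were called too, at 5.19 and 3.82 in the authors' deposited table. Of the 12 largest falls, 10 were hair or root sheath keratins and keratin-associated proteins, from Krt81 at -8.52 ± 2.06 to Krt72 at -7.40 ± 1.80. The others were Fam26d at -7.33 ± 1.68 and Igfn1, a muscle protein, at -14.31 ± 3.69 (adjusted p = 0.0038). The value for Igfn1 lies near the limit of 15 beyond which fitted sizes were not used, so its size was not read as a measured ratio.

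**Figure D4:**
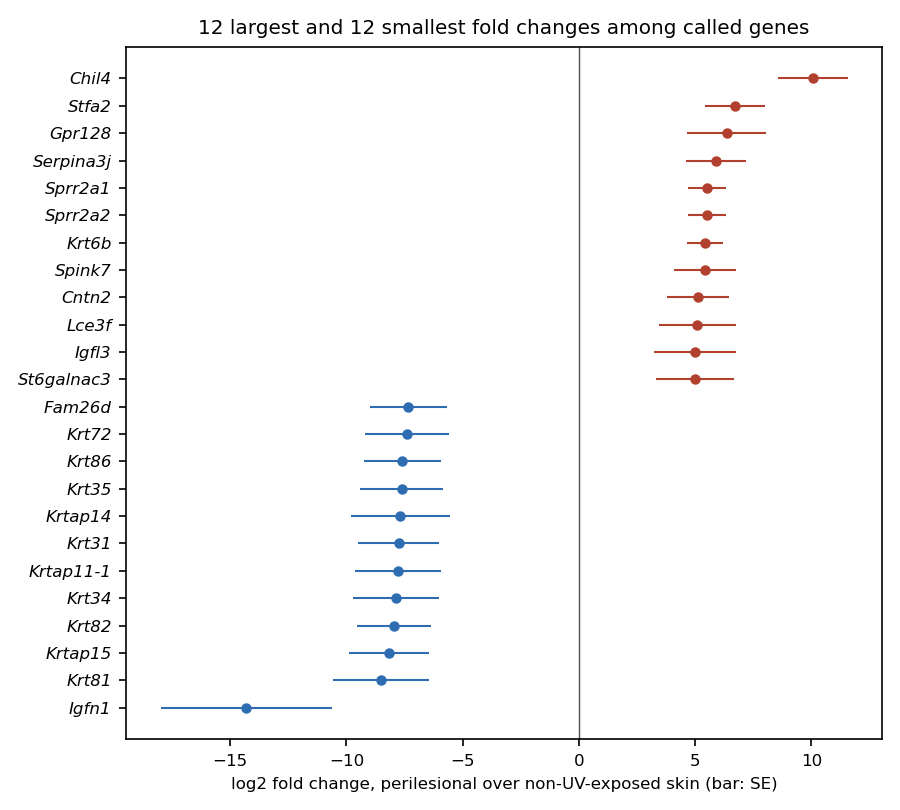
Log2 fold change in perilesional over non-UV-exposed skin (horizontal axis; bar: SE) for the 12 called genes with the largest and the 12 with the smallest values. Chil4 at 10.06 leads the rises, and hair keratins between -8.52 and -7.40 fill most of the falls below which Igfn1 lies at -14.31.

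In lists of cell division the share of genes that rose was near the 3.8% of all genes. Of 31 tested mitosis genes 1 rose, the kinase Plk1 at 1.33 ± 0.42 (adjusted p = 0.023), and of 34 DNA replication genes 1 rose, the nucleotide reductase subunit Rrm2 at 1.25 ± 0.41 (adjusted p = 0.032). The medians were 0.72 and 0.41. Mki67, a marker of cycling cells, had 0.33 ± 0.29 (adjusted p = 0.54). Among 27 p53 targets and apoptosis genes only Mdm4, an inhibitor of p53, was called, and it fell by 0.80 ± 0.26 (adjusted p = 0.03), beside 4.94% of all genes that fell. None of these 3 calls was made with the largest SE. Trp53 and its target Cdkn1a had -0.05 ± 0.31 and 0.28 ± 0.31, with adjusted p of 0.95 and 0.63. None of 18 nucleotide excision repair genes, which remove ultraviolet photoproducts, was called, and Xpc had -0.61 ± 0.24 (adjusted p = 0.085). These misses do not show that the sites were alike, given SEs near the median of 0.324.

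Lists of oxidative defence, signalling, matrix turnover and the clock gave 2 or 3 calls each, beside 8.74% of all genes called. With the largest SE 1 hyaluronan gene was called and none of the other lists of this kind had a call. Of 21 NRF2 target genes 2 rose, Gclm of glutathione synthesis at 1.49 ± 0.37 (adjusted p = 0.0023) and Tkt of the pentose phosphate route at 0.81 ± 0.27 (adjusted p = 0.035). Of 15 genes of the EGF receptor family and its ligands, Ereg rose by 1.90 ± 0.53 (adjusted p = 0.0087) and Epgn fell by 1.41 ± 0.47 (adjusted p = 0.036). Of 14 Notch genes the ligands Dll1 and Jag2 fell, with values of -1.35 ± 0.35 and -1.0 ± 0.34, with adjusted p of 0.0046 and 0.043. Of 11 hyaluronan genes 2 rose: Cemip, which degrades hyaluronan, by 2.74 ± 0.47 (adjusted p = 2.7e-06) and the synthase Has3 by 2.51 ± 0.66 (adjusted p = 0.0048). Of 19 clock genes Cry2, Hlf and Nr1d1 fell, with values of -0.92, -1.50 and -1.20, with adjusted p of 0.003, 0.0033 and 0.0069, and times of collection are not in the labels.

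Several genes set lesions apart from the skin beside them without being called in perilesional over non-UV skin. Ptgs2, the inducible cyclooxygenase COX-2, had -1.59 ± 1.02 in perilesional over non-UV skin (adjusted p = 0.37), and it was higher in lesional than in perilesional skin by 5.24 ± 1.01 (adjusted p = 0.0011). None of 16 prostaglandin genes was called in perilesional over non-UV skin. Of 27 glycolysis and hypoxia genes none was called either, with a median of 0.70, and 4 were higher in lesional than in perilesional skin. These were Egln3 and Ndrg1 at 1.92 and 2.41, and Vegfa and Car9 at 1.38 and 2.72, with adjusted p of 0.0022, 0.006, 0.045 and 0.045. Tslp, an epithelial cytokine, was higher in lesions by 4.0 (adjusted p = 0.0039). Over all genes 81 of 15187 were called in lesional over perilesional skin, and 53 when the largest SE of the 3 deposited tables was used.

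The fibroblast, collagen and matrix protease lists gave 1 to 3 calls each, beside 3.8% of all genes that rose and 4.94% that fell. With the largest SE 1 fibroblast gene was called among them. Of 22 fibroblast genes Tnc, a matrix glycoprotein of repair, rose by 1.65 ± 0.26 (adjusted p = 1.2e-07) and Fbln1, a fibulin, by 2.02 ± 0.48 (adjusted p = 0.0015). Of 23 collagens only Col23a1 was called, and it fell by 0.94 ± 0.31 (adjusted p = 0.031), while Col1a1 had 1.66 ± 0.90 (adjusted p = 0.26). Of 23 matrix proteases and inhibitors Mmp25 and Adamts1 rose by 3.07 and 1.38, with adjusted p of 0.034 and 0.049, and Mmp28 fell by 1.60 (adjusted p = 0.0013). None of 22 endothelial and pericyte genes was called, with a median of 1.10, and none of 16 adipocyte, 6 melanocyte or 10 Schwann cell genes was called.

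Marker lists of other tissues and of body position were examined in the same way. All 23 tested skeletal muscle genes had positive values, from 0.57 to 3.07, with a median of 2.14, and none was called. Myh1, a fast myosin, had 3.07 ± 1.67 (adjusted p = 0.27). Of 5 red blood cell genes none was called, with a median of -1.23. Hox genes keep the positional identity of skin: of 16 HoxA and HoxB genes Hoxb7 rose by 2.69 ± 0.55 (adjusted p = 0.00012) and Hoxb8 by 2.30 ± 0.79 (adjusted p = 0.043). Of 10 HoxC and HoxD genes Hoxc4, Hoxc8 and Hoxc6 fell, with values of -1.74, -1.61 and -1.50, with adjusted p of 0.0052, 0.0075 and 0.014. Beside these, 3.8% of all genes rose and 4.94% fell. The largest SE left 1 HoxA or HoxB gene called and 0 of HoxC and HoxD, and with an adjusted p required in all 4 tables the counts were 0 of 7 and 3 of 6. For perilesional over non-lesional skin the authors' deposited table gave Hoxb7 -0.04 and Hoxb8 -0.18, and neither was called. The part of muscle content or body site in the other results was not tested.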

How the data were processed

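Total RNA of whole skin was sequenced, and the members and gene lists were chosen with earlier results of these data known. Reads were trimmed with Trim Galore and tested with DESeq2 on GRCm38 (mm10), per the submitters' processing notes. For the aligner, the counter, the annotation, their versions and the design, the answer is not given in the sources used here. Deposited were 4 tables of 1 comparison each, made by the authors. They hold a log2 fold change, a Wald statistic (a score, the fold change over its SE) and a p-value with its adjusted p-value, per the file headers. One table's name and header disagree, and the header (lesional over back) was followed: of 1423 genes with a fold of 0 between non-lesional and non-UV libraries, 704 were positive and 0 negative in it. No count is given, so depth per library is unknown and the precision is that of the SE.

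Values were computed with Python 3.11.15, pandas 2.3.3 and scipy 1.17.1. Tables were joined on 24027 shared symbols after 25 symbols turned into dates were removed. For list symbols, 8 were matched through an older or newer name. Genes with an adjusted p in both summed tables were tested (14122). The 2 SEs lay within 10% of each other for 94.1% of them, and for 84.7% of the called genes. Lesional over perilesional skin was the deposited lesional over non-UV value minus the derived one. For its variance the squared SEs were combined (lesional over non-UV, less non-lesional over non-UV, plus perilesional over non-lesional), which assumes 1 fit with the group alone. Scripts were tested on simulated data in which all SEs of a gene were equal, so the choice of the larger SE was not tested. Named genes are the 12 largest and 12 smallest called fold changes, up to 4 members of smallest adjusted p per list, and a fixed set of keratinocyte, cycle and p53 genes. Others were named after their values were seen. Some results of the named-gene rule are not reported here.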

Additional observations from a re-analysis of the deposited data

Results flagged for a closer look

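For genes picked by the naming rule, 2 tests asked whether the change from unexposed skin differs between sites, since the non-UV libraries cancel in each. In the authors' deposited table of perilesional over non-lesional skin, those that passed included 8 given here. The differences (log2, ± SE, with the DESeq2 adjusted p) were 5.19 ± 1.14 for Serpina3j (0.018), 3.82 ± 0.87 for Cntn2 (0.018), 2.80 ± 0.66 for Cers4 (0.03) and 3.06 ± 0.60 for Elovl6 (0.0061). Slc25a1 had 1.45 ± 0.34 (0.03), Fa2h 4.75 ± 1.06 (0.018) and Elovl3 3.52 ± 0.83 (0.03) in the authors' deposited table. Tchh had -3.66 ± 0.88 (0.032) in the same deposited table, the one negative value.

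In lesional over perilesional skin, 8 genes picked by that rule passed the Wald test with Benjamini-Hochberg adjustment, apart from the other list members given above. Lower in lesions were Lce1h at -1.89 ± 0.33 (0.00018), Lce1g at -1.57 ± 0.32 (0.0018) and H2-T22 at -0.84 ± 0.22 (0.038). Higher were Fosl1 at 3.48 ± 0.75 (0.0035), Epgn at 2.07 ± 0.47 (0.0058), Ptgs2 at 5.24 ± 1.01 (0.0011) and Has3 at 2.39 ± 0.65 (0.045). Igfn1 had 13.80 ± 3.63 (0.037), a size that is not a measured ratio.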

How the results depend on the processing

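No paired analysis was possible because the tables hold no values per library, and for the same reason no library could be left out in turn. Beside 1234 genes changed in perilesional over non-UV skin, 97 were called with the upper-bound SE and 23 (21 higher, 2 lower) when the spread of the statistic over genes set the null. With that null, 2 genes were called in perilesional over non-lesional skin (17 otherwise) and 12 in lesional over perilesional skin (81 otherwise). The largest of the 3 SEs gave 53 in the last. The root mean square of the 2 SEs, no filter on low counts, an adjusted p in all 4 tables, and centring on the median gave 1138 to 1359 genes in perilesional over non-UV skin. Centring took the higher share of calls in lesional over perilesional skin from 58% to 44.9%. Of 106 named called genes, 34 were called with the upper-bound SE, 12 with that wider null and 105 after centring. Apart from centring, which took the median of 0.02 from each value, these settings left the fold changes as they were. Their signs therefore could not test the settings. Depth limits cannot be stated without counts.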

Other observations

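Genes outside the lists, chosen after their values were seen, were among those of smallest adjusted p in perilesional over non-UV skin. Gsdmc, a gasdermin of epithelia, rose by 2.71 ± 0.35 (adjusted p = 4.7e-11), and Fabp5, the epidermal fatty acid binding protein, by 2.92 ± 0.44 (adjusted p = 3.3e-08). Cdkn2a, which encodes the cell cycle inhibitors p16 and p19, rose by 3.44 ± 0.62 (adjusted p = 1.1e-05), with 2.50 in the authors' deposited table of non-lesional over non-UV skin. Lif, a cytokine, rose by 2.24 ± 0.40 (adjusted p = 8.9e-06). The interleukin receptor chains Il18rap and Il2ra rose by 2.62 ± 0.49 and 3.25 ± 0.75, with adjusted p of 2.2e-05 and 0.0011. Bmp3 and Bmp4, ligands of the bone morphogenetic protein family, fell by 3.81 ± 0.53 and 2.52 ± 0.57, with adjusted p of 1.5e-09 and 0.00077. Avil, an actin-severing protein, fell by 3.24 ± 0.61 (adjusted p = 2.5e-05).

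Genes that fell covered longer stretches of the genome. The median genomic span, introns included, was 52.52 kb for genes that fell, 16.35 kb for genes that rose and 23.66 kb for all genes tested, of which 95.13% had a span. When genes were split by span into 5 bins of near-equal number, 2.57% of the shortest bin and 10.2% of the longest bin fell, while 5.8% of the shortest and 2.53% of the longest rose. In the authors' deposited table of lesional over non-UV skin the medians were 46.07 kb for genes that were lower and 16.83 kb for those that were higher. In their deposited table of non-lesional over non-UV skin they were 30.19 kb for 72 lower genes and 17.56 kb for 157 higher ones. The comparisons share the non-UV libraries, and RNA quality per library was not available for a test of its part.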
